A study of Mus musculus with 4 samples.

Results

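Superoxide production by phagocytes depends on the NADPH oxidase NOX2, and the genes of this enzyme, together with Padi4, were followed in RNA-seq libraries of tibial bone marrow from obese mice. Of the 55401 genes in the deposited tables, 6 were chosen by name: Cybb, Cyba, Ncf1, Ncf4, Rac2 and Padi4. All 6 were found, and all 6 passed the minimum mean level of 0.1 FPKM that left 18596 genes for testing. The libraries came from 2 samples of obese mice (Ob) and 2 samples of obese mice that exercised (Ob + Exe). All were wild-type male C57/B6 mice, given a high-fat diet (HFD) from 8 weeks of age to establish obesity. The Ob mice then had no intervention other than the diet, while the Ob + Exe mice stayed on the diet and ran on a treadmill at moderate intensity for 12 weeks. The labels do not say whether a library holds 1 mouse or a pool, so p values here measure the spread between these libraries, which may be partly technical.

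In a resting neutrophil or monocyte the oxidase is disassembled. Its catalytic part, flavocytochrome b558, sits in the membrane as a pair of gp91phox (encoded by Cybb) and p22phox (Cyba). The organizer p47phox (Ncf1) and p40phox (Ncf4) wait in the cytosol, and the GTPase Rac2 of blood cells joins them at the membrane when the cell is stimulated. The assembled enzyme passes electrons from NADPH to oxygen, and the resulting superoxide feeds the killing of microbes. Padi4 encodes a peptidylarginine deiminase that converts arginine of histones to citrulline and helps to open chromatin during the release of neutrophil extracellular traps, a process in which oxidase products can take part.

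The level of a gene is given as scaled FPKM, fragments normalized to transcript length and library size, summed over its transcripts and divided by a factor for the library. Coverage times transcript length, over a read length of 150 bases, gave 4.43e+07 to 5.30e+07 read equivalents per library. Each of the 6 genes rested on at least 6299 of these in every library. Bone marrow is the labelled tissue, yet other label fields name mesenchymal stem cells and fibroblast. The 8 stromal and fibroblast markers, none at 0, summed to 114 and 169 FPKM in Ob and to 107 and 174 FPKM in Ob + Exe. Most of this was Cxcl12, a chemokine of marrow stroma, at 88.4 to 142 FPKM, which is in the range of Cybb and Rac2. The collagen gene Col1a1 stood at 1.17 to 3.12 FPKM and Pdgfra at 0.264 to 0.381 FPKM, while S100a8 of neutrophils stood at 11901 to 35869 FPKM. The libraries are described here as bone marrow, the labelled tissue. In such bulk RNA, fewer cells of a type and less RNA per cell cannot be told apart.

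None of the 6 genes was called, where a call needs both an unadjusted limma p under 0.05 and a log2 fold change past 1 in either direction. Such calls made up 3.74% of all genes tested (696 of 18596). By the unadjusted p alone, 1 of the 6 genes (Ncf4) was under 0.05, against 5.05% of all genes, and limma voom on read equivalents gave the same count with no call, where it called 2.47% of all genes and had 3.83% under 0.05. No gene of the whole table had an adjusted p under 0.05 in limma, a share of 0.00%, although 940 had an unadjusted p under 0.05. Other limma fits had such genes, 18 with the replicate number as a block, 11 with crossed numbers and 17 with coding transcripts only. Fold changes above 0 were found for 48.3% of all genes. The fitted log2 fold changes of the 6 genes lay between 0.04 for Cyba and 0.65 for Ncf4, with a median of 0.26 against -0.02 over all genes tested. The sign of Cyba was negative when the libraries were not scaled. In the plot of levels by library, the Ob and Ob + Exe points are apart for Ncf1, Ncf4 and Padi4 and mixed for Cybb, Cyba and Rac2.

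**Figure D1:**
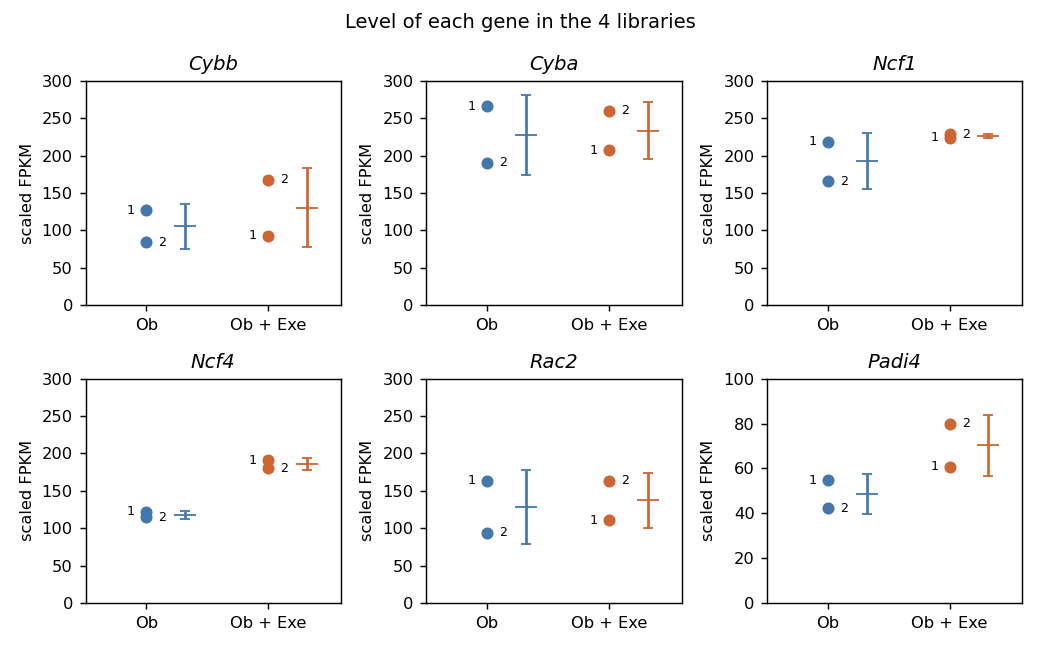
Scaled FPKM of each gene in the 2 Ob libraries (blue) and the 2 Ob + Exe libraries (orange), with the replicate number beside each point and the mean with its SD to the right; the axis starts at 0 and is shorter for Padi4. The Ncf4 points lie at 114 and 122 in Ob and at 181 and 191 in Ob + Exe, while the points of Cybb, Cyba and Rac2 overlap between the groups.

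The membrane subunits come first. Cybb (ENSMUSG00000015340.10) is annotated on the minus strand of chromosome X of GRCm38 from 9435252 to 9487771. Its level was 127 and 84.2 FPKM in Ob and 92.9 and 168 FPKM in Ob + Exe. The second Ob + Exe library was the highest and the second Ob library the lowest, so the groups overlapped. The Ob mean was 106 ± 30.2 (SD, n = 2) and the Ob + Exe mean 130 ± 53.1 (SD, n = 2). The fold change was 1.21, with a 95% interval from 0.653 to 2.23 (log2 fold change 0.27 with a standard error of 0.36, limma adjusted p = 0.974 by the Benjamini-Hochberg method).

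Cyba (ENSMUSG00000006519.11), the partner that stabilizes gp91phox and carries the docking site for p47phox, lies on the minus strand of chromosome 8 from 122424776 to 122432930. It had 266 and 190 FPKM in Ob and 207 and 260 FPKM in Ob + Exe. Here the first Ob library was the highest and the second Ob library again the lowest. The group means, 228 ± 53.6 (SD, n = 2) and 234 ± 37.8 (SD, n = 2), were closer to each other than the replicates of either group. The fold change was 1.03, with a 95% interval from 0.658 to 1.62 (log2 fold change 0.04, limma adjusted p = 0.988). An overlapping gene on the opposite strand, Galnt2l, is listed at 0 in all 4 libraries.

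The start regions of these genes are shown because Cybb and Cyba encode both chains of the membrane complex and both had the first Ob and the second Ob + Exe library high, while Padi4 belongs to another pathway of the same cells. RefSeq promoter windows, 250 bases before to 50 bases after the annotated start, were found for 4 of the 6 genes. Capitals mark exact matches, on either strand, to 4 short motifs. The motif GAGGAA is a core that PU.1 and other ETS factors recognize, and GGGCGG is known as the GC box. The other motifs were CCAAT, read by several factors, and the TATA box in the form TATAAA. No matches overlapped each other in these windows. On the minus strand of GRCm38.p6 the windows are chrX:9469275-9469574 for Cybb, chr8:122432891-122433190 for Cyba and chr4:140774154-140774453 for Padi4.
Cybb: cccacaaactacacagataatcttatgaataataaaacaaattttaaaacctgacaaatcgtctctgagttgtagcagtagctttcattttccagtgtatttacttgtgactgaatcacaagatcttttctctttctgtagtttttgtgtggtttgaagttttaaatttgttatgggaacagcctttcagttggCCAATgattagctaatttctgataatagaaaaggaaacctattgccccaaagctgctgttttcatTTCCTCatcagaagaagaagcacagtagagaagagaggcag
Cyba: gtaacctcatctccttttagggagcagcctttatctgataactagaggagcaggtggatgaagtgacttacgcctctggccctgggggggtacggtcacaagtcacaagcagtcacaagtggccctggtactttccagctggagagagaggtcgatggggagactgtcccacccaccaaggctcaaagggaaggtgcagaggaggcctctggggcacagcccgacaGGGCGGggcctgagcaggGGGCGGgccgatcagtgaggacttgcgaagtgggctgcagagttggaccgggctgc
Padi4: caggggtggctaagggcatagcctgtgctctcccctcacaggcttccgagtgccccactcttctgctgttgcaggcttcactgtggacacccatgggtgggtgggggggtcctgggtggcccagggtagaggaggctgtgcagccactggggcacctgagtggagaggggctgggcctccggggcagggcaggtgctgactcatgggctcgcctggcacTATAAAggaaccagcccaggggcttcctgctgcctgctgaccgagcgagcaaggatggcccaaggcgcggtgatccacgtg

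The 3 windows were of different base composition, with 35.3% G and C in Cybb, 60.7% in Cyba and 66.3% in Padi4, against a median of 52.7% over 32851 promoter windows of the same length. The Cybb window held a CCAAT that begins at position -56 from the start and, on the opposite strand, GAGGAA at position 10, printed as TTCCTC. In the deposited tables the main transcript begins at this start for Cybb, 10 bases downstream of it for Cyba and at position -33 for Padi4. The Cyba window held GGGCGG at positions -24 and -6. The Padi4 window held TATAAA at position -31, which lies inside that transcript of the tables. The Ncf1 window, not printed, held 1 GGGCGG on the opposite strand. Of all windows, 28.3% held GAGGAA, 35.7% GGGCGG, 37.4% CCAAT and 13.6% TATAAA, so none of these matches is rare, and a match describes the letters only.

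The cytosolic subunits follow. Ncf4 (ENSMUSG00000071715.12), whose product p40phox binds a phosphoinositide of phagosome membranes, lies on the plus strand of chromosome 15 from 78244801 to 78262580. Its level was 122 and 114 FPKM in Ob and 191 and 181 FPKM in Ob + Exe. Both Ob + Exe libraries lay above both Ob libraries, and the replicates of each group were close, with 118 ± 5.37 (SD, n = 2) against 186 ± 7.57 (SD, n = 2). The fold change of 1.57 had a 95% interval from 1.13 to 2.19 (log2 fold change 0.65 with a standard error of 0.20, limma adjusted p = 0.959). The unadjusted p in limma was 0.0164, which ranked Ncf4 295 among the 18596 genes. The gene was not called, since its log2 fold change stayed within 1. Leaving out 1 library at a time gave log2 fold changes from 0.59 to 0.69, and over all settings the adjusted p in limma ran from 0.347 to 1. With the replicate number as a block the unadjusted p in limma was 0.0688.

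Ncf1 (ENSMUSG00000015950.13) encodes p47phox, which is phosphorylated on stimulation and carries the cytosolic complex to the membrane. It lies on the minus strand of chromosome 5 from 134220053 to 134229625. It stood at 219 and 166 FPKM in Ob and at 224 and 229 FPKM in Ob + Exe. The first Ob library was just below both Ob + Exe libraries, so the lack of overlap came with a small gap. The Ob mean was 192 ± 37.4 (SD, n = 2) and the Ob + Exe mean 226 ± 3.23 (SD, n = 2). The fold change was 1.19, with a 95% interval from 0.803 to 1.76 (log2 fold change 0.25, limma adjusted p = 0.959), and the log2 fold change was 0.037 without the second Ob library. The span of Ncf1 overlaps that of Gtf2ird2 on the plus strand, which stood at 11.0 and 13.7 FPKM in Ob and at 24.1 and 12.1 FPKM in Ob + Exe. The library kit is not stated to keep strand, so reads of the shared stretch cannot be told apart.

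Rac2 (ENSMUSG00000033220.7), the GTPase that switches the assembled oxidase on in neutrophils, lies on the minus strand of chromosome 15 from 78559167 to 78572783. Its level was 163 and 93.7 FPKM in Ob and 111 and 164 FPKM in Ob + Exe. The high and the low library of one group thus matched those of the other. The Ob mean was 129 ± 49.3 (SD, n = 2) and the Ob + Exe mean 137 ± 37.3 (SD, n = 2), a fold change of 1.09 with a 95% interval from 0.603 to 1.96 (limma adjusted p = 0.983). Rac1, the paralog found in most cell types, had 86.6 and 72.5 FPKM in Ob and 58.8 and 101 FPKM in Ob + Exe. Rac2 was the more abundant of the 2 genes in each library, by a ratio of 1.29 to 1.89. Near-identical stretches of these paralogs could share reads in the authors' counting.

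Padi4 (ENSMUSG00000025330.6) lies on the minus strand of chromosome 4 from 140745865 to 140774236. Its level was 54.8 and 42.2 FPKM in Ob and 60.7 and 79.8 FPKM in Ob + Exe. Both Ob + Exe libraries were above both Ob libraries, with a gap smaller than the spread within either group. The Ob mean was 48.5 ± 8.92 (SD, n = 2) and the Ob + Exe mean 70.2 ± 13.5 (SD, n = 2). The fold change was 1.45, with a 95% interval from 0.948 to 2.21 (log2 fold change 0.53, limma adjusted p = 0.959). The log2 fold change moved between 0.32 without the second Ob + Exe library and 0.72 without the first.

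A separation of the groups, with both Ob + Exe libraries above both Ob libraries, was thus seen for 3 of the 6 genes (Ncf1, Ncf4 and Padi4). The same was found for 14.3% of all genes tested, against 18.3% with both Ob + Exe libraries lower and 32.6% in either direction. An exact permutation test over 2 against 2 libraries gave a two-sided p = 0.333 for each of these 3 genes, which is the smallest it can give. For Cybb, Cyba and Rac2 the direction rested on single libraries. Without the second Ob library their log2 fold changes were -0.036, -0.21 and -0.29, and without the second Ob + Exe library they were -0.17, -0.13 and -0.17.

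The transcripts behind each gene were then examined, with transcript types taken from GENCODE vM21. For Cybb a single coding transcript, ENSMUST00000015484.9 with 13 exons, held 98.9% to 99.8% of the FPKM of the gene. The main coding transcript held 92.3% to 97.5% of Cyba, 90.0% to 97.3% of Ncf1, 97.5% to 98.2% of Rac2 and 88.2% to 94.7% of Padi4. Ncf4 was different, as 6 transcripts each reached at least 1% of its FPKM in some library and its coding transcripts together held 64.7% to 72.8%.

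Within Ncf4, the main coding transcript ENSMUST00000096357.11 (10 exons, 1464 bases) had 83.7 and 72.3 FPKM in Ob and 124 and 86.1 FPKM in Ob + Exe. The 9-exon coding transcript ENSMUST00000133618.2 had 5.12 and 2.51 FPKM in Ob, 0.0229 FPKM in the first Ob + Exe library and 41.4 FPKM in the second. StringTie therefore assigned the coding reads to different models in the 2 Ob + Exe libraries. Their sum was steadier, with 88.8 and 74.8 FPKM in Ob and 124 and 128 FPKM in Ob + Exe. The other 4 transcripts of Ncf4 are annotated as retained introns and summed to 33.2 and 39.7 FPKM in Ob and 67.5 and 52.9 FPKM in Ob + Exe. For both classes the 2 Ob + Exe libraries lay above the 2 Ob libraries. With the main transcript alone the log2 fold change of Ncf4 was 0.36 (unadjusted p = 0.242 in limma), and with the coding transcripts, an alternative chosen after seeing the data, it was 0.62 (unadjusted p = 0.0201).

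**Figure D2:**
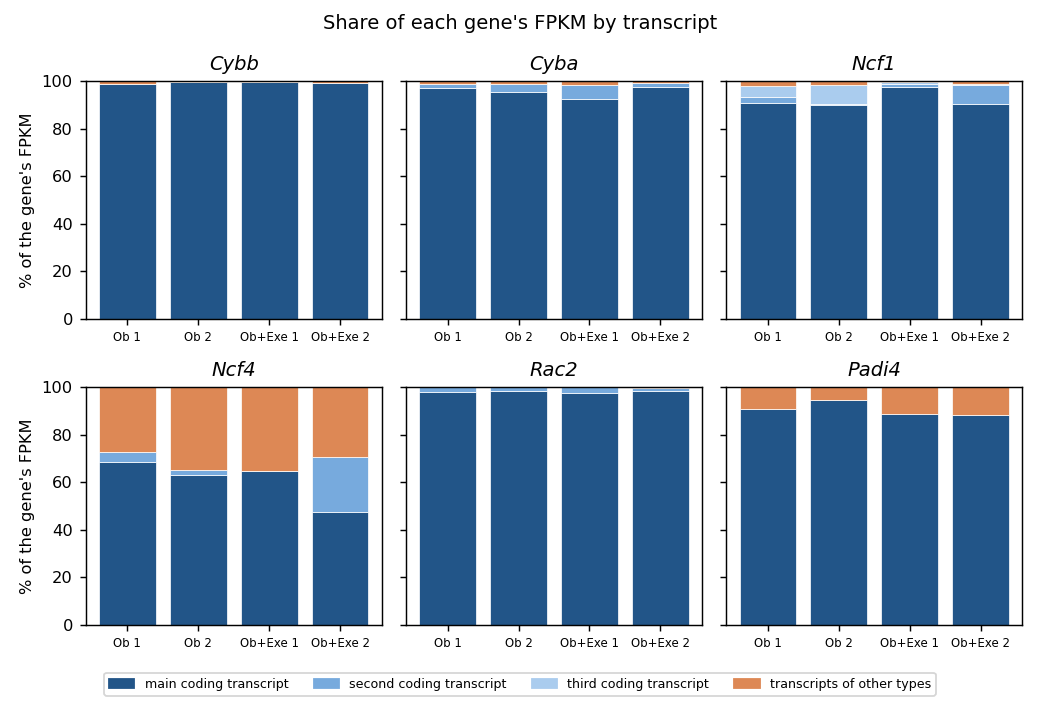
Share, in percent, of the FPKM of each gene that StringTie assigned to its coding transcripts (blue shades) and to transcripts of other types (orange), for the 4 libraries. One coding transcript fills nearly the whole bar for Cybb and Rac2, while for Ncf4 the main transcript holds 47.7% to 68.6%.

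Since FPKM is per length, levels can also be set beside each other between genes. Over the 4 libraries Cyba was the most abundant, with 231 ± 38.0 FPKM (SD, n = 4), followed by Ncf1 with 209 ± 29.3, Ncf4 with 152 ± 39.4, Rac2 with 133 ± 36.0, Cybb with 118 ± 38.1 and Padi4 with 59.4 ± 15.7. The ranges of all neighbours in this order overlapped, except that each Cybb value was above each Padi4 value. Each of these SDs spans both groups and so includes any difference between them. The mean of Ncf4 was 118 against 129 for Rac2 in Ob, and 186 against 137 in Ob + Exe. Ncf1 was above Ncf4 within all 4 libraries, and Cyba was above Ncf1 in 3 of them. The Ncf4 level includes its retained introns. Coding transcripts alone gave Ncf4 88.8 and 74.8 FPKM in Ob and 124 and 128 FPKM in Ob + Exe. Rac2 then had 163 and 93.7 against 111 and 163 FPKM, and Cybb 126 and 83.9 against 92.6 and 167 FPKM. On this scale Ncf4 was above Rac2 and Cybb in the first Ob + Exe library and below both elsewhere. The ratio of Cybb to its partner Cyba was 0.477 and 0.442 for the pair of Ob libraries, then 0.448 and 0.645 in Ob + Exe.

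Ratios within a library do not depend on its scaling, and the following were chosen after the levels were seen. They use all transcripts of each gene, for Ncf4 with its retained introns. The ratio of Ncf4 to Cybb was 0.961 and 1.36 for the pair of Ob libraries, then 2.06 and 1.07 in Ob + Exe. The ratio of Ncf4 to Ncf1 was 0.558 and 0.690 for the pair of Ob libraries, then 0.853 and 0.789 in Ob + Exe, with no overlap between the groups. Of the 5 ratios of Ncf4 to another of the 6 genes, those to Ncf1 and Cyba did not overlap and those to Cybb, Rac2 and Padi4 did. For single genes, a lack of overlap in either direction was found for 32.6% of all genes tested. The exact permutation test gave a two-sided p = 0.333 for the ratios to Ncf1 and Cyba, the smallest it can give. The ratio of Cybb to Itgam, the integrin chain of the same myeloid cells, stayed between 1.34 and 1.45 in all 4 libraries.

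**Figure D3:**
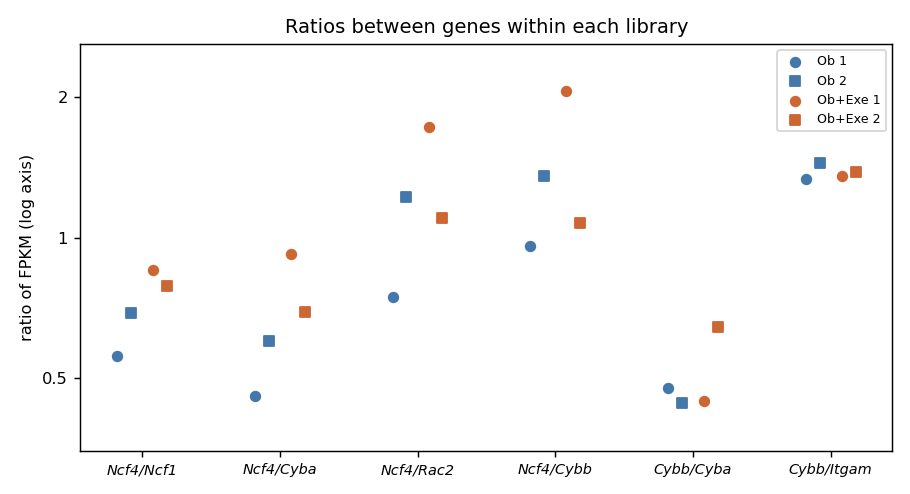
Ratio of the FPKM of named gene pairs within each library on a log axis, for Ob (blue) and Ob + Exe (orange), replicate 1 as circles and replicate 2 as squares. The Cybb to Itgam ratio is tight, from 1.34 to 1.45, while Ncf4 to Cybb spreads from 0.961 to 2.06.

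The library that was low for one of the 6 genes tended to be low for the others, as the second Ob library had the lowest value of all 6. The summed level of markers of mature neutrophils, which express the oxidase, was lowest in the same library. The 7 mature neutrophil markers, none of them at 0, summed to 2452 and 1347 FPKM in Ob and to 2119 and 3585 FPKM in Ob + Exe. All 7 had a log2 fold change above 0 (median 0.33) and none was called. The direction rested on single libraries, as 4 of 7 were above 0 (median 0.0033) without the second Ob library and 3 of 7 (median -0.010) without the second Ob + Exe library. Retnlg, a resistin-like gene of mature neutrophils that made up most of the summed level, had 1746 and 893 FPKM in Ob and 1550 and 2676 FPKM in Ob + Exe. Thus the first Ob and the second Ob + Exe library were the higher ones both for the summed level of these markers and for Cybb, Cyba and Rac2. Not every marker had this pattern, as Csf3r had 141 and 134 FPKM in Ob and 185 and 166 FPKM in Ob + Exe.

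Markers of other myeloid stages were set beside these. The 5 precursor markers, led by Elane, Prtn3 and Mpo of the primary granules, summed to 1249 and 703 FPKM in Ob and to 1389 and 909 FPKM in Ob + Exe. All 5 had a log2 fold change above 0 (median 0.32), but the median was -0.25 without the second Ob library and -0.23 without the first Ob + Exe library. The 5 secondary granule markers, led by Ngp, Camp and Lcn2, summed to 11360 and 6596 FPKM in Ob and to 8195 and 11991 FPKM in Ob + Exe. The 8 monocyte and macrophage markers, led by Ly6c2, F13a1 and Ccr2, were even, with a summed level of 530 and 463 FPKM in Ob and 463 and 533 FPKM in Ob + Exe. No marker of these 3 lists was called or listed at 0. The part of these cell types in the levels of the 6 genes was not tested. Relative to the mean log2 level of the mature neutrophil markers, Ncf4 was at -0.32 and 0.38 in Ob and at 0.76 and -0.20 in Ob + Exe, so its groups overlapped on this scale. For Cybb and Rac2 the differences between the group means on this scale were -0.13 and -0.28, with both Ob + Exe libraries below both Ob libraries. Cybb was at -0.267 and -0.057 in Ob and at -0.282 and -0.301 in Ob + Exe, so its gap was very small. Cyba had a larger difference of -0.36 with overlapping groups. A lack of overlap in either direction was found for 32.6% of all genes tested on the unadjusted levels. Against the precursor markers the differences for Cybb and Rac2 were 0.02 and -0.13 with overlapping groups. Against the secondary granule markers they were -0.02 with overlap for Cybb and -0.17 without overlap for Rac2. Cyba was also without overlap there (-0.25).

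**Figure D4:**
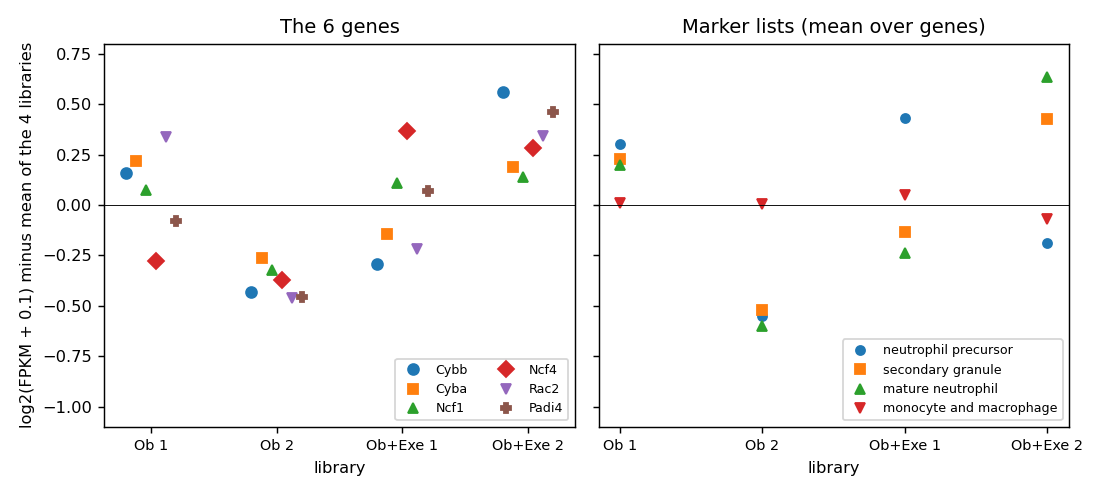
Log2(FPKM + 0.1) minus the mean of the 4 libraries, for the 6 genes (left) and for the mean of 4 marker lists (right); points are libraries. The second Ob library is the lowest for all 6 genes and for the 3 neutrophil lists, and the monocyte and macrophage list stays close to 0.

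Partners and regulators of the oxidase were taken from a list of 17 genes, all of which were tested. None was called (3.74% of all genes were), 12 had a log2 fold change above 0 and 5 below, and the median was 0.19. Without scaling these counts were 10 and 7. The median was 0.0020 without the second Ob library and -0.11 without the second Ob + Exe library. It was 0.21 without the first Ob library and 0.29 without the first Ob + Exe library. None of the 17 had an unadjusted p under 0.05 in limma or in limma voom. With coding transcripts alone 1 of the 17 was called, the kinase gene Prkcb, whose log2 fold change was then -6.27 against -0.11 with all its transcripts. Over the alternatives that kept all 4 libraries, the value for Prkcb ran from -6.27 to 2.22. Cybc1, the chaperone of the flavocytochrome, had 40.3 and 48.3 FPKM in Ob and 73.2 and 49.2 FPKM in Ob + Exe, giving a log2 fold change of 0.44 (limma adjusted p = 0.959). The proton channel gene Hvcn1, which balances the charge of the burst, had a log2 fold change of 0.33, and the kinase gene Prkcd one of 0.27. The GDP dissociation inhibitors of Rac, Arhgdia and Arhgdib, had log2 fold changes of -0.17 and -0.09. S100a8, whose product helps to deliver arachidonic acid to the oxidase, ranged from 11901 FPKM in the second Ob library to 35869 FPKM in the second Ob + Exe library, and its 95% interval from -1.01 to 2.23 on the log2 scale was the widest of the list.

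**Figure D5:**
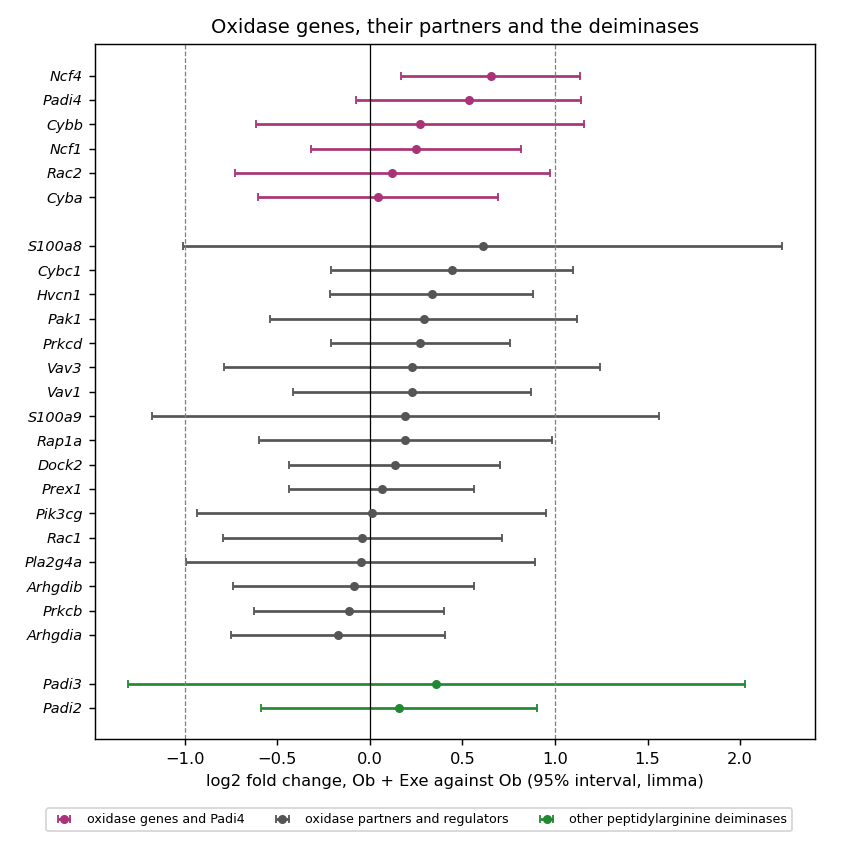
Log2 fold change of Ob + Exe against Ob with its 95% interval from limma for the 6 genes, their partners and the tested deiminases; dashed lines mark a log2 fold change of 1 in either direction. No point lies beyond a dashed line, and Ncf4 is the 1 gene plotted whose interval does not include 0.

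Other genes of the same families stood at lower levels. Of 9 other NADPH oxidase family genes, Noxo1 alone passed the minimum level, at 0.128 to 0.329 FPKM, and Nox3, Duox2 and Duoxa2 were listed at 0 in all 4 libraries. Nox4 was at most 0.0726 FPKM. Among the other 4 deiminase genes Padi2 had 4.80 and 4.02 FPKM in Ob and 5.49 and 4.39 FPKM in Ob + Exe, and Padi3 did not exceed 0.497 FPKM. Padi4 was 10.5 to 18.2 times as abundant as Padi2. Neither Padi2 nor Padi3 was called, and Padi1 and Padi6 fell below the minimum.

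Upstream of the enzyme, 14 receptors and adaptors that trigger the burst were all tested and none was called. Of these, 12 had a log2 fold change above 0 and the median was 0.32. Without scaling 11 were above 0. Without the second Ob library 7 of 14 were above 0 (median -0.026), and without the second Ob + Exe library 4 of 14 (median -0.077). The median was 0.65 without the first Ob library and 0.68 without the first Ob + Exe library. Fcer1g, the most abundant of the list, had 316 and 246 FPKM in Ob and 236 and 310 FPKM in Ob + Exe (log2 fold change -0.04). Fpr2, a formyl peptide receptor, had 160 and 125 FPKM in Ob and 168 and 239 FPKM in Ob + Exe. Itgb2 had 112 and 69.2 FPKM in Ob and 87.4 and 114 FPKM in Ob + Exe (log2 fold change 0.18). The groups overlapped for Fcer1g and Itgb2 but not for Fpr2. Clec7a, the receptor for fungal glucans, was picked out after its values were seen, as the 1 gene of the list with an unadjusted p under 0.05. It had 41.8 and 45.2 FPKM in Ob and 69.5 and 77.3 FPKM in Ob + Exe, giving a log2 fold change of 0.75 (a standard error of 0.20, limma adjusted p = 0.959). When coding transcripts alone were summed its log2 fold change was 1.56 and it was called.

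Of 7 transcription factors known to act on phagocyte oxidase genes none was called, 4 had a log2 fold change above 0 and 3 below, and the median was 0.14. The median was -0.033 without the second Ob library and -0.042 without the second Ob + Exe library. It was 0.0082 without the first Ob library and 0.22 without the first Ob + Exe library. Spi1, which encodes PU.1, had 91.4 and 59.4 FPKM in Ob and 71.9 and 91.6 FPKM in Ob + Exe, the same high and low libraries as Cybb and Rac2. Cebpb, the most abundant of the 7, had 67.4 and 83.3 FPKM in Ob and 73.4 and 96.5 FPKM in Ob + Exe. Its groups overlapped (log2 fold change 0.17). Cebpe, a factor of late granulocyte maturation, had 57.5 and 44.3 FPKM in Ob and 71.5 and 68.5 FPKM in Ob + Exe (log2 fold change 0.47, limma adjusted p = 0.959). The order of the libraries was that of Ncf4, but the gap between the groups was smaller than the spread within Ob. Irf1 was also separated upward (log2 fold change 0.24). Elf1, an ETS factor, was separated downward by a very small gap, with 27.2 and 24.2 FPKM in Ob and 23.3 and 24.1 FPKM in Ob + Exe (log2 fold change -0.11). A lack of overlap between the groups, counting both directions, was found for 32.6% of all genes tested.

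Downstream, 8 genes linked to extracellular traps all had log2 fold changes above 0, where 48.3% of all genes tested were above 0. Their median was 0.36 and none was called. Without scaling 7 of the 8 were above 0. Without the second Ob library 5 were above 0 (median 0.089), and without the first Ob + Exe library also 5 (median 0.21). The median was 0.67 without the first Ob library and 0.49 without the second Ob + Exe library. Pglyrp1, a peptidoglycan recognition protein of neutrophil granules, had 639 and 436 FPKM in Ob and 1001 and 869 FPKM in Ob + Exe. Its log2 fold change was 0.82 (a standard error of 0.29, limma adjusted p = 0.959). Camp, the cathelicidin gene, had 2252 and 1791 FPKM in Ob and 2713 and 2776 FPKM in Ob + Exe. Ltf had 1131 and 726 FPKM in Ob and 1122 and 1290 FPKM in Ob + Exe, with overlapping groups (log2 fold change 0.41). Mpo, the myeloperoxidase that uses the hydrogen peroxide made from superoxide, overlapped between the groups, with 308 and 161 FPKM in Ob and 286 and 185 FPKM in Ob + Exe. Several of these genes also stand in the neutrophil marker lists above.

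Among 5794 other genes with a mean of at least 10 FPKM, those with 4 centred log2 values nearest to the mean profile of the 6 genes were Ripor2, Tmem38b, Alox5ap, Gng2 and Ostf1, at Euclidean distances from 0.0212 to 0.0599 over the 4 libraries. Alox5ap, for instance, had 223 and 167 FPKM in Ob and 209 and 268 FPKM in Ob + Exe. The 6 genes themselves lay farther from their mean profile, at 0.231 for Padi4 up to 0.524 for Ncf4. With 4 libraries many genes come this close, and no test was made.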

How the data were processed

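The authors cleaned reads with fastp and an rRNA filter, mapped them to GRCm38 (HISAT2), filtered with SAMtools and ran StringTie on the GENCODE vM25 annotation. Versions are not given in the sources used here. The deposited tables hold, for 142604 transcripts per library, read coverage (a signal not scaled for depth) and FPKM, which the authors' program obtains from coverage with 1 constant per library.

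Transcript FPKM were summed to genes. Genes with a mean of at least 0.1 FPKM were kept, each library was divided by its median-of-ratios factor (0.945 to 1.04), and log2(FPKM + 0.1) was compared in limma 3.58.1 under R 4.3.3 (intensity trend, 2 residual and 3.79 prior degrees of freedom, no covariate). Fold changes refer to that scale, which understates changes of low genes. Coverage gave whole reads for at most 2.32% of transcripts above 0.5 read equivalents (within 0.01), so no count test was run, and limma voom on read equivalents was an alternative. The script was tested on simulated data. Tables and figures were made with Python 3.11.15, pandas 2.3.3 and matplotlib 3.10.9.

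The 6 genes and all gene lists were chosen with earlier results of these data known. Named genes were drawn from the 6, their listed partners and deiminases, and the 5 genes nearest in profile. Of other lists, the called genes and the 3 most abundant could be named. Itgam, Clec7a, Pdgfra, Irf1, Elf1, Epx, Il5ra, Ccr3 and genes near or at 0 FPKM fall outside this rule and were named after their values were seen. Transcript types come from GENCODE vM21 (140751 transcripts matched) and promoters from RefSeq. One gene of the partner list is not reported here.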

Additional observations from a re-analysis of the deposited data

How the results depend on the processing

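None of the 6 genes was called under any of the 16 alternatives, and Ncf1, Ncf4 and Padi4 kept a positive log2 fold change in all of them. Cyba was at -0.043 without scaling and at -0.019 with the most abundant transcript alone. With 1 library left out, the ranges were -0.17 to 0.69 for Cybb, -0.21 to 0.28 for Cyba and -0.29 to 0.52 for Rac2. The median of the 6 genes was 0.17 to 0.27 in the other settings and 0.000745 to 0.54 with 1 library left out, lowest without the second Ob library. The number of genes called in the whole table, 696, was 267 with a minimum mean of 1 FPKM, 222 with a pseudocount of 1, 459 with limma voom, 1060 without the intensity trend and 428 with coding transcripts only, and 599 to 1851 with 1 library left out, the most without the second Ob + Exe library (1229 without the first). Without scaling the median log2 fold change of all genes was -0.10. The cause of these shifts was not tested.

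The groups share replicate numbers 1 and 2. The differences between replicates of the 2 groups had a correlation of -0.106 across all genes tested and -0.235 across those with a mean of at least 1 FPKM. Neither value shows a pairing by number, but 2 libraries per group cannot settle it. Blocking on that number gave 742 called genes and a log2 fold change of 0.65 for Ncf4 (unadjusted p = 0.0688 in limma), and with the crossed pairing, added after seeing the data, 803 were called. Whether depth or the number of libraries limits these comparisons was not tested.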

Other observations

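Marker lists of other marrow cells were counted beside the oxidase genes. Of all genes tested, 3.74% were called. Of 5 eosinophil markers, a cell that also uses this oxidase, Prg2 (major basic protein) was called higher in Ob + Exe, with 13.6 and 15.4 FPKM in Ob and 27.9 and 53.2 FPKM in Ob + Exe (log2 fold change 1.41, limma adjusted p = 0.959). Its call was lost in 3 of 16 alternatives, without the first Ob library, without the second and without the second Ob + Exe library. The other 4 eosinophil markers were not called and went both ways. Epx had 1.11 and 0.871 FPKM in Ob and 1.58 and 7.70 FPKM in Ob + Exe. Both Ob + Exe libraries were thus above both Ob libraries (log2 fold change 1.74 with a standard error of 0.75). Il5ra and Ccr3 had both Ob + Exe libraries below both Ob libraries (log2 fold change -0.30 each). Of 6 B cell markers, 5 had a log2 fold change below 0 and 1 above. Cd79a alone was called, as lower, with 48.1 and 44.2 FPKM in Ob and 21.3 and 23.5 FPKM in Ob + Exe (limma adjusted p = 0.941). Its call was lost without the first Ob or the first Ob + Exe library. All 5 megakaryocyte markers had negative log2 fold changes, of which 3 remained below 0 without the second Ob + Exe library. Gp1ba alone was called, as lower (log2 fold change -1.99, limma adjusted p = 0.959). Its call was lost without the first or the second Ob library and with the most abundant transcript alone. Col1a1 was the 1 called gene of 8 stromal markers (log2 fold change -1.01, limma adjusted p = 0.959), and its call was lost in 8 of 16 alternatives. Of these 8 markers, 4 had a log2 fold change above 0 and 4 below, with a median of 0.06. Col1a2, at a higher level than Col1a1, overlapped between the groups (log2 fold change -0.06). No marker was called among 5 T and NK cell, 5 erythroid and 2 tested osteoclast genes. The osteoclast genes Ocstamp, Dcstamp and Calcr were at most 0.118 FPKM.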
